A study of Mus musculus with 41 samples.

Results

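The subunits of the NMDA receptor, a glutamate-gated cation channel, were described across 3 brain regions of mice with and without an astrocytic deletion of Yy1. The 6 genes were Grin1, Grin2a, Grin2b, Grin2c, Grin2d and Grin3a, which are 6 of the 24946 gene entries kept from the table, and the rule that picks them uses their symbols. Polyadenylated RNA had been sequenced from the whole cortex, midbrain or cerebellum of C57BL/6J mice aged 12 weeks, of both labelled sexes. Floxed mice carry Yy1 alleles that Cre can excise. Conditional knockout mice (cKO) also carry Cre under the promoter of Gfap, an astrocyte intermediate filament gene. Yy1 encodes a transcription factor that can activate or repress genes. Floxed alleles are shared by both genotypes and no group carried Cre without them, so Cre itself and the deletion of Yy1 cannot be told apart. The comparisons used 6 floxed and 5 cKO libraries of cortex, 7 and 7 of midbrain, and 7 and 7 of cerebellum. Each library within a region came from a separate animal.

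An NMDA receptor is a tetramer that holds the obligatory GluN1 subunit (Grin1), which binds the co-agonists glycine and D-serine, together with GluN2 subunits that bind glutamate. GluN2A (Grin2a) and GluN2B (Grin2b) prevail in the adult forebrain, where GluN2A gains on GluN2B after birth, while GluN2C (Grin2c) is known from cerebellar granule cells and from astrocytes, and GluN2D (Grin2d) from interneurons and the brainstem. GluN3A (Grin3a) binds glycine in place of glutamate and lowers calcium entry. Fewer cells of a type and less RNA per cell cannot be told apart in whole tissue.

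All values are normalised reads, a signal that had been scaled between libraries before deposit, with library totals of 21.5 to 28.7 M. The reads behind the 39 libraries, estimated from the spacing of low values, ranged from 6.81 to 69.5 M. Cerebellum had the widest gap between genotypes in median depth, at 28.8 M reads for floxed and 16.3 M for cKO libraries. The medians were 29.2 M and 22.7 M for midbrain, and 29.1 M and 28.4 M for cortex. Yy1 was lower in cKO tissue, by a log2 fold of -0.26 in cortex (limma adjusted p = 0.0166), -0.24 in midbrain (0.0180) and -0.86 in cerebellum (0.00114). Region labels were checked with marker sums: 9 granule neuron markers summed to between 65940 and 165969 normalised reads in cerebellum and to at most 10347 elsewhere. The 8 thalamic, dopamine and serotonin markers summed to between 3038 and 9524 in midbrain and to at most 2034 in cortex. They did not separate midbrain from cerebellum, where they summed to 797 to 5608 in floxed and 1909 to 7651 in cKO libraries. Cortical excitatory neuron markers did not separate midbrain from cortex, at 28798 to 66333 in midbrain and 46307 to 80215 in cortex. All libraries of the animals numbered floxed 5, floxed 6 and cKO 7 are labelled female and hold at most 22.1 normalised reads of Xist, the transcript that silences an X chromosome in females, where other libraries labelled female hold at least 8232. In cortex Xist was therefore unbalanced between genotypes. Every floxed library held at most 18.9 reads of it, while cKO libraries 5 and 6 held 10914 and 9515.

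Several libraries stood apart within their groups. In cerebellum the library of the floxed animal numbered 6 had 585 normalised reads of Yy1, inside the cKO range of 499 to 683, while the other floxed libraries had 881 to 1348. Its 7 Bergmann glia markers summed to 19780 (other floxed libraries 39218 to 48740, cKO libraries 13136 to 21594), and its 8 microglia markers summed to 10383 (2609 to 3247, and 8648 to 20828). The cKO cerebellum libraries numbered 4 and 7 had granule marker sums of 65940 and 89114 (other cKO libraries 139626 to 165969) and oligodendrocyte marker sums of 449895 and 440298 (123568 to 197431). These libraries also lay toward the ends of the depth range. Estimated reads were 69.5 M in floxed cerebellum library 6, the highest of all 39 libraries. They were 13.8 M in cKO cerebellum library 4 and 6.81 M in library 7, the lowest of all. Where leaving these libraries out moved a member's call or its size by much, both values are given.

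The 6 genes were located in GENCODE vM21 on GRCm38. Grin1 spans chr2:25291181-25319187, Grin2a chr16:9567898-9995560, Grin2b chr6:135713233-136173511, Grin2c chr11:115249169-115267243, Grin2d chr7:45831883-45878378 and Grin3a chr4:49661611-49845744, all on the minus strand. The kit did not mark strand, and 1307 exonic bases of Grin1 (13.5% of its exonic length) also belong to exons of the antisense gene Grin1os, so reads from these stretches cannot be told apart. Kdelr1 overlaps Grin2d on the other strand and Ppp3r2 lies within Grin3a, with 0 exonic bases shared in either case. Another 643 exonic bases of Grin2d (9.66%) lie under the antisense Gm45441, which has no entry of its own among those analysed here.

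Since the deleted gene encodes a DNA-binding factor, the stretches before the starts of Grin2c and Grin1 are shown, as the subunit with the largest fall in cKO cortex and the obligatory partner that did not pass the test there. They are RefSeq sequences of GRCm38.p6, given 5′ to 3′ on the minus strand, ending at the base before the gene as RefSeq bounds it and holding no capitals because neither motif searched occurs in them. The Grin2c stretch is chr11:115267298-115267493 and the Grin1 stretch is chr2:25319188-25319437.
Grin2c: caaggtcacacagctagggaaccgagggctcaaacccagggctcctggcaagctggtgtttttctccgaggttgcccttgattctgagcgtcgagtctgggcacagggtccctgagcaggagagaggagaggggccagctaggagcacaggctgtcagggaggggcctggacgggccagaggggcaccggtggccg
Grin1: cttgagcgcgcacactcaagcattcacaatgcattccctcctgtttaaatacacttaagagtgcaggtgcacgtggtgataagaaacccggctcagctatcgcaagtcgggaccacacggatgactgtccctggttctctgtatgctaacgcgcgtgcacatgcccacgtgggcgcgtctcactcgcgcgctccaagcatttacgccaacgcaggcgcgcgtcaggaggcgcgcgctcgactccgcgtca
The core of the Yy1 motif, CCATNTT or its reverse complement AANATGG, had no match in the 250 bases before the start of Grin1, Grin2c or Grin2d, the 3 members with an entry. Of 32851 promoters of that length, 12.4% held a match. The GC box GGGCGG or CCGCCC, searched after the sequences had been seen, occurred 2 times in the 250 bases before the listed start of Grin2c, neither of them wholly within the stretch shown, and in 32.7% of all promoters. The Grin2c stretch was 64.8% G or C and that of Grin1 58.8%, where the median promoter was 52.4%. Grin2a, Grin2b and Grin3a were not searched.

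In floxed tissue the regions differed in which subunit was most abundant. Levels between genes were compared per kb of exon. Cortex held Grin1 at 2182 ± 166 normalised reads per kb (SD, n = 6), then Grin2b at 574 ± 87.6, Grin2c at 507 ± 174, Grin2a at 276 ± 30.6, Grin2d at 143 ± 17.3 and Grin3a at 100.3 ± 16.1. The ranges of Grin2b and Grin2c overlapped, as did those of Grin2d and Grin3a, while Grin2b lay above Grin2a in every library. Grin2c and Grin2a overlapped through the floxed library numbered 6 alone, with Grin2c at 168 there and at 525.7 or more in the other 5 libraries. Midbrain held Grin1 at 1721 ± 104, Grin2c at 423 ± 62.4, Grin2b at 381 ± 44.0, Grin2a at 231 ± 17.3, Grin2d at 186 ± 13.5 and Grin3a at 112 ± 11.5 (SD, n = 7), and Grin2c and Grin2b alone overlapped as neighbours. Cerebellum held Grin2c at 3434 ± 706, Grin1 at 1244 ± 69.6, Grin2a at 90.4 ± 17.4, Grin2d at 80.5 ± 14.7, Grin3a at 48.2 ± 10.2 and Grin2b at 23.0 ± 4.76 (SD, n = 7), where Grin2a with Grin2d and Grin2d with Grin3a overlapped. The latter overlap rests on library 6, with Grin2d at 48.5 there and at 81.0 or more in the other 6 libraries, where Grin3a reached 60.0. The order depends on the length used. Per kb of coding sequence, floxed cortex had Grin2b at 3207, Grin2a at 1126 and Grin2c at 687, and floxed cerebellum had Grin2c at 4654 and Grin1 at 4101.

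**Figure D1:**
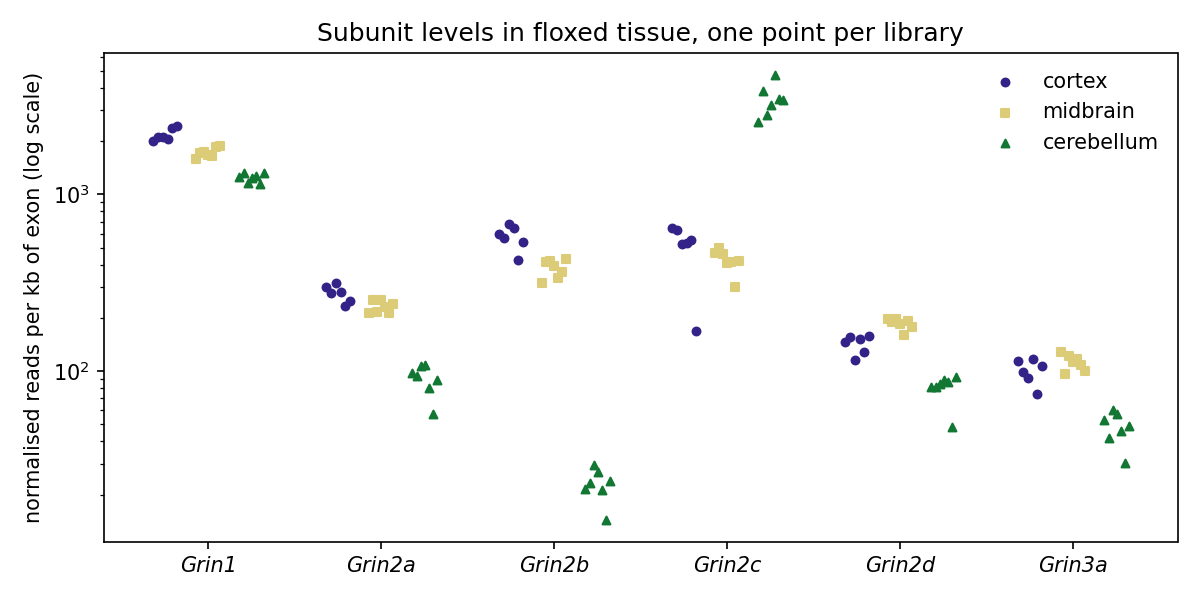
Normalised reads per kb of exon (log scale) of each subunit in floxed cortex (n = 6), midbrain (n = 7) and cerebellum (n = 7), 1 point per library. Grin2c is the member that is higher in cerebellum than in the other regions, and Grin2b spans the widest range, from a mean of 574 in cortex to 23.0 in cerebellum.

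Between floxed cerebellum and floxed cortex, 5 members were lower and 1 was higher in cerebellum, where 42.4% of all genes tested were called lower and 24.2% higher. Grin2c, the subunit of granule cells, had 12943 to 23752 normalised reads in cerebellum (median 17248) and 845 to 3237 in cortex (median 2719). Every cerebellar library lay above every cortical one, as was so for 13.1% of all genes, and the log2 fold was 2.87 (limma adjusted p = 1.65e-06). Grin2b, the subunit with slow decay that prevails early in life, had 359 to 734 reads in cerebellum (median 578) and 10626 to 16793 in cortex (median 14423), a 24.6-fold lower level. The other members fell less: Grin2a by 1.59 on the log2 scale, Grin3a by 1.04, Grin2d by 0.83 and Grin1 by 0.82, each with no overlap between regions, which held for 28.7% of all genes in this direction. These differences stand against a median of -0.13 over all genes, which moved to 0.15 with equal library totals and to 0.11 with quantile normalisation, with the same direction for all 6 members.

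Against midbrain, the floxed cerebellum showed the same 5 members lower (42% of all genes called lower) and Grin2c higher (26.8% called higher), by a log2 fold of 3.01. No member's ranges overlapped, as was so for 27.5% of all genes toward lower and 14.6% toward higher levels in cerebellum. Grin2b was 16.8-fold lower and Grin2a 2.60-fold lower. These comparisons share the cerebellar libraries. Between midbrain and cortex, Grin1, Grin2a and Grin2b were lower in midbrain by log2 folds of -0.35, -0.24 and -0.57, where 27.8% of all genes were called lower, and Grin2d was higher by 0.39, where 14.8% were called higher. Grin2d had 1062 to 1318 normalised reads in midbrain and 767 to 1053 in cortex, with no overlap, as was so for 5.9% of all genes in this direction. Grin2c did not pass (log2 fold -0.10, limma adjusted p = 0.761), and passed without the floxed animal numbered 6 (-0.36, adjusted p = 0.000907), whose cortical library held 845 reads. Without the floxed cortex library numbered 5 it was 0.06 (adjusted p = 0.847). Grin2a lost its call with equal library totals (adjusted p = 0.0989) or quantile normalisation (0.173), under which Grin3a passed as higher in midbrain (0.0299 and 0.0339).

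In cKO cortex and midbrain 1 member changed, Grin2c, and it fell in both. In cortex it had 3237, 3164, 2648, 2665, 2773 and 845 normalised reads in the floxed libraries numbered 1 to 6, and 512, 688, 763, 698 and 1013 in the cKO libraries numbered 2 to 6. The floxed library numbered 6 lay inside the cKO range and the other 5 lay above it, at 2897 ± 282 (SD, n = 5). The level was 3.23-fold lower in cKO cortex, with log2 fold -1.69 ± 0.34 (SE) and adjusted p = 0.00828 in limma, where 12.9% of all genes tested were called lower. Without the floxed library numbered 6 the log2 fold was -2.05 (adjusted p = 6.4e-06).

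In midbrain Grin2c ranged from 1514 to 2494 normalised reads in floxed libraries (median 2112) and from 572 to 1109 in cKO libraries (median 805). The groups did not overlap, which held for 1.84% of all genes in this direction, and the lowest floxed library was again that of the animal numbered 6. The level was 2.65-fold lower, with log2 fold -1.41 ± 0.15 (SE) and adjusted p = 9.92e-05 in limma, where 7.61% of all genes were called lower. The fall was tested for a difference between midbrain and cortex, which came to 0.31 on the log2 scale (95% interval -0.38 to 1.00, adjusted p = 0.998).

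The other members stayed closer to their floxed levels in these regions and did not pass the test. In cortex the log2 fold of Grin1 was -0.02 (95% interval -0.13 to 0.10), with 18979 to 25373 normalised reads in cKO and 19515 to 23471 in floxed libraries. Grin2a, Grin2b, Grin2d and Grin3a had log2 folds of -0.19, -0.22, -0.17 and -0.15, with intervals that reach down to -0.40, -0.46, -0.40 and -0.44. Grin2b passed without the cKO cortex library numbered 3 (-0.31, adjusted p = 0.0494). In midbrain their log2 folds lay between -0.15 (Grin2a) and 0.04 (Grin1), and the widest interval, that of Grin2b, ran from -0.25 to 0.09.

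**Figure D2:**
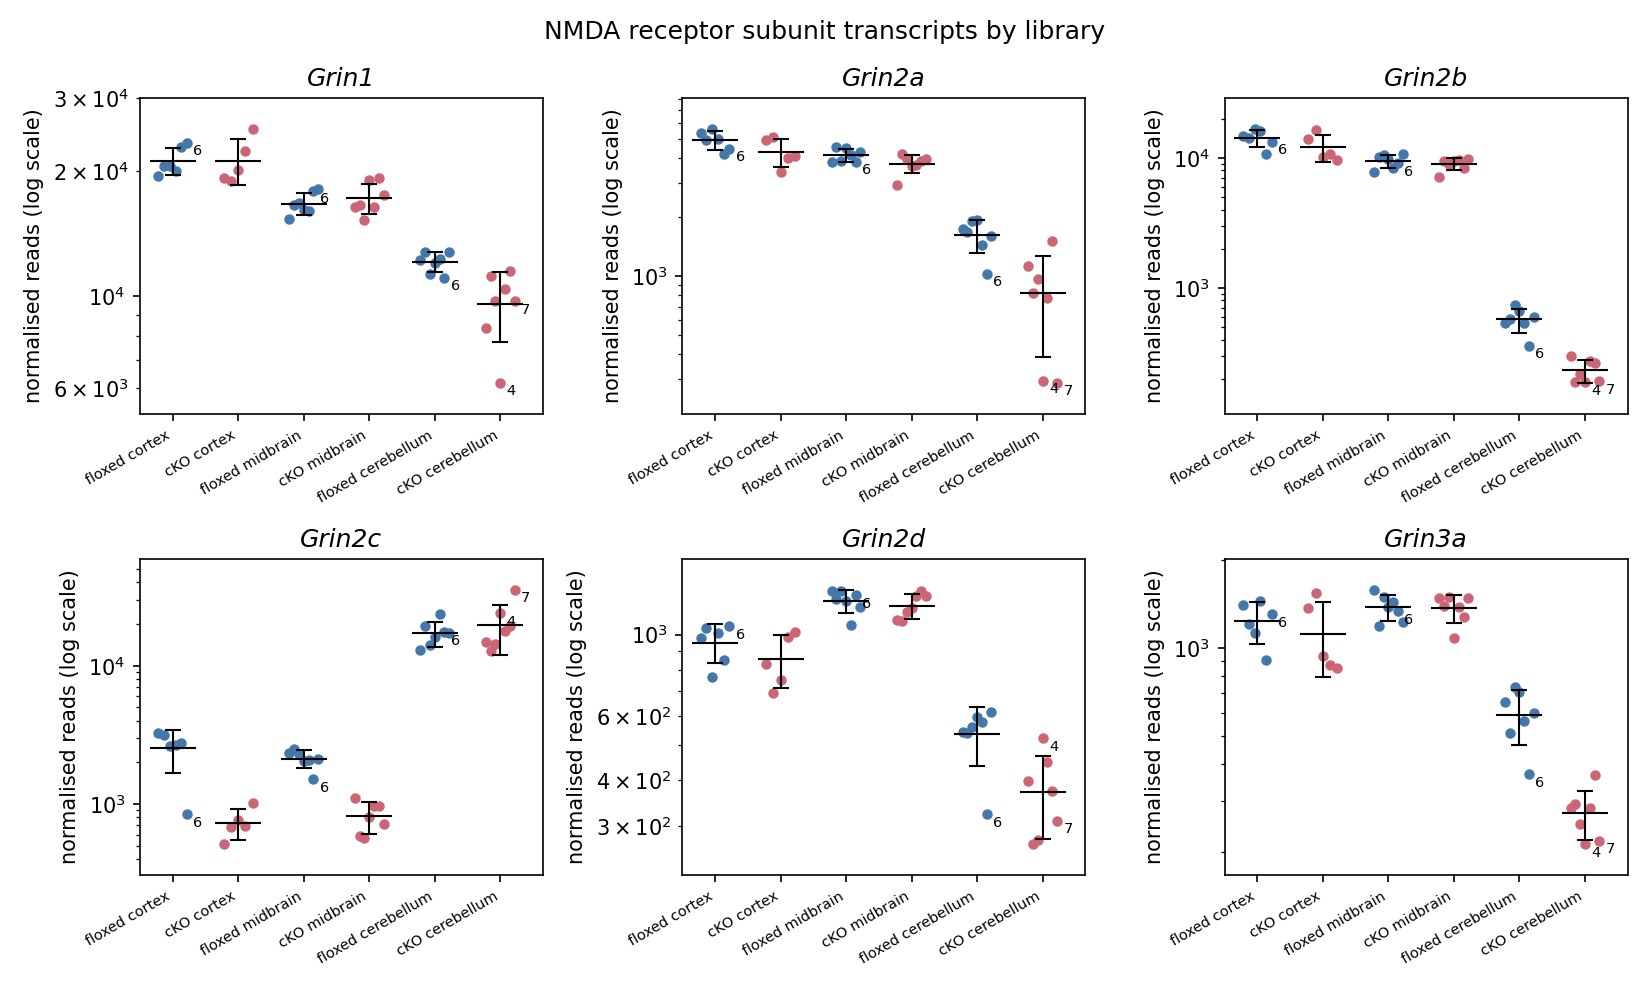
Normalised reads (log scale) of each subunit by region and genotype, 1 point per library, blue for floxed and red for cKO, with the group mean and SD in black. Libraries numbered 6 of the floxed groups and 4 and 7 of cKO cerebellum are marked, and Grin2c in floxed cortex has 1 library at 845 among cKO values and 5 between 2648 and 3237.

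Genes listed as markers of several cell types were also called in cKO cortex and midbrain. Of all genes, 12.9% were called lower and 10.5% higher in cortex, and 7.61% and 8.48% in midbrain. Of 14 astrocyte markers, 6 fell and 1 rose in cKO cortex (median log2 fold -0.37, -0.01 over all genes), and the same counts were found in midbrain (median -0.15, -0.01 over all genes). The gap junction gene Gja1 fell by 1.22 on the log2 scale in cortex and by 1.12 in midbrain, the glutamate transporter gene Slc1a2 fell by 0.89 in cortex, and Gfap, whose promoter drives Cre, rose by 2.30 and 1.25. The summed astrocyte markers overlapped between genotypes, at 196179 to 308812 in floxed and 177567 to 216904 in cKO cortex, and none of the 14 was at 0. Of 8 microglia markers, 7 rose in cortex and 6 in midbrain, and 3 of 10 oligodendrocyte markers fell in each region (median -0.38 and -0.27). In cortex 1 of 9 cortical excitatory markers was called higher and 0 lower. Their sums did not overlap, at 46307 to 64556 in floxed and 70610 to 80215 in cKO cortex. Of 9 genes listed as Purkinje cell markers 5 fell and 0 rose in cortex (median -0.34). Their sums were 28737 to 38458.5 in floxed cortex and 138619 to 249506 in floxed cerebellum. In cortex this list was not read as a cell type. Of 12 general neuron markers 3 fell and 1 rose there, and of 9 inhibitory neuron markers 1 fell and 2 rose. In midbrain 6 of 8 endothelial and mural markers fell (median -0.46), with sums of 5457 to 8399 in floxed and 4076 to 6253 in cKO libraries. The thalamic, dopamine and serotonin markers fell there too, 6 of 8 (median -0.52), with sums of 6316 to 9524 and 3038 to 6194 that did not overlap. The part of any cell type in the fall of Grin2c was not tested.

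In cKO cerebellum the pattern was the other way round: Grin2c did not pass the test and the other 5 members fell, where 19.6% of all genes were called lower. Grin2b had 537, 578, 734, 667, 531, 359 and 591 normalised reads in the floxed libraries numbered 1 to 7, and 298, 188, 217, 188, 275, 263 and 192 in the cKO libraries. Every cKO library lay below every floxed one, as was so for 3.7% of all genes, and the floxed library numbered 6 lay nearest to them. The level was 2.45-fold lower, with log2 fold -1.29 ± 0.16 (SE) and adjusted p = 0.000367 in limma. Grin3a, the glycine-binding subunit, had 371 to 737 reads in floxed libraries (median 597) and 213 to 367 in cKO libraries (median 284), again with no overlap. Its log2 fold was -1.10 (SE 0.16, adjusted p = 0.000574).

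Grin2a, the subunit of mature synapses, had 1750, 1687, 1909, 1936, 1435, 1031 and 1601 normalised reads in the floxed and 1125, 826, 967, 294, 776, 1504 and 286 in the cKO cerebellum libraries numbered 1 to 7. The lowest values, 294 and 286, belong to the cKO libraries numbered 4 and 7, and the groups overlap. Its log2 fold was -1.17 ± 0.34 (SE), with adjusted p = 0.0144 in limma, and without those 2 libraries it was -0.66 (adjusted p = 0.0115). Grin2d had 323 to 615 reads in floxed libraries (median 560) and 267 to 520 in cKO libraries (median 374), a log2 fold of -0.54 (SE 0.18, adjusted p = 0.0252). Grin1 had 11051 to 12794 reads in floxed libraries (median 12192) and 6164 to 11495 in cKO libraries (median 9722), a log2 fold of -0.36 (SE 0.12, adjusted p = 0.0258). All 7 cKO libraries lay below the floxed mean for each of these 3 genes.

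The calls of Grin1 and Grin2d were near the threshold. That of Grin1 was lost without floxed library 1, 2 or 4 or cKO library 1 (adjusted p = 0.0514, 0.0503, 0.0505 and 0.0502), and with equal library totals (0.0664), quantile normalisation (0.146), depth as a covariate (0.0607) or without the animals numbered 5 to 7 (0.0603). That of Grin2d was lost without floxed library 4 or 7 or cKO library 3 (0.0522, 0.0578 and 0.0506). With depth as a covariate Grin2a did not pass either (-0.91, adjusted p = 0.0847). Without cKO libraries 4 and 7 and floxed library 6 all 5 were called, with log2 folds of -0.27 for Grin1, -0.76 for Grin2a, -1.30 for Grin2b, -0.74 for Grin2d and -1.09 for Grin3a.

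Grin2c in cerebellum had 12943, 19343, 14187, 16096, 23752, 17520 and 17248 normalised reads in the floxed and 14799, 12779, 14248, 23934, 17879, 19382 and 35422 in the cKO libraries numbered 1 to 7. The highest cKO values, 35422 and 23934, are those of libraries 7 and 4, the libraries with the lowest Grin2a. The log2 fold was 0.14 (95% interval -0.24 to 0.51, limma adjusted p = 0.557), and it was -0.11 (adjusted p = 0.440) without these libraries. A log2 fold as low as that of cortex (-1.69) or midbrain (-1.41) lies outside the interval. This holds for the fold and not for a loss of as many reads. Floxed means of Grin2c were 2555 normalised reads in cortex, 2131 in midbrain and 17299 in cerebellum.

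**Figure D3:**
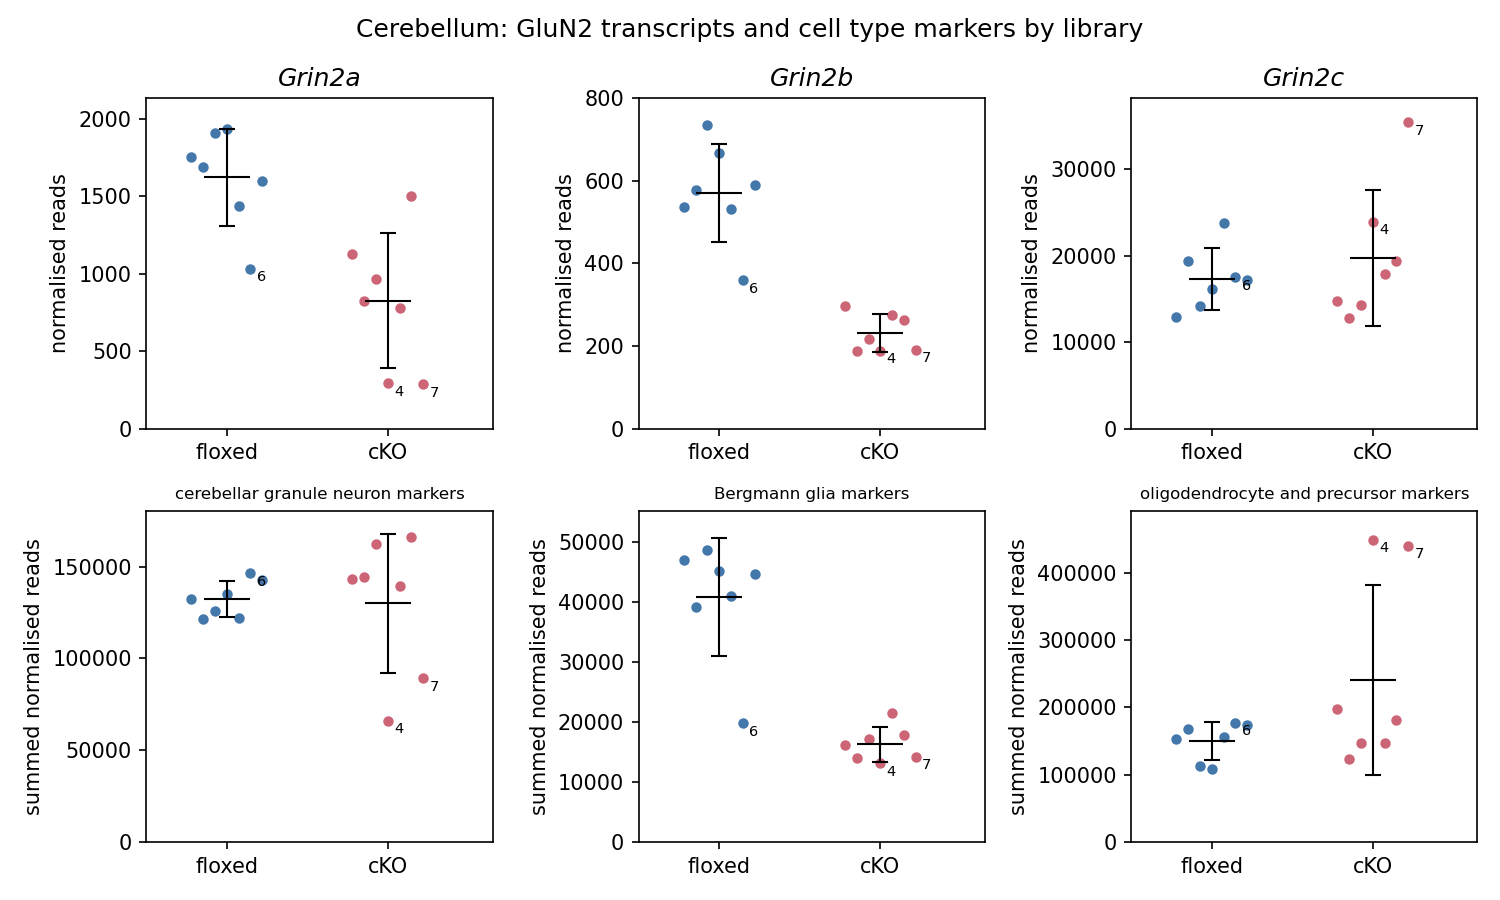
Normalised reads of Grin2a, Grin2b and Grin2c and summed normalised reads of granule neuron (9), Bergmann glia (7) and oligodendrocyte (10) markers in cerebellum, 1 point per library (n = 7 and 7), blue for floxed and red for cKO, with the mean and SD. Floxed library 6 and cKO libraries 4 and 7 are numbered: the latter have Grin2c at 23934 and 35422 and oligodendrocyte sums of 449895 and 440298.

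Genes listed as markers of neuron and glial types were also called in cKO cerebellum, where 19.6% of all genes were called lower and 19.4% higher. Of 9 granule neuron markers 2 fell, Zic1 (log2 fold -0.62) and Gabra6 (-0.64), with sums of 121276 to 146408 in floxed and 65940 to 165969 in cKO libraries. Without cKO libraries 4 and 7, 4 of the 9 were called higher and 1 lower. Of 9 Purkinje cell markers 7 fell (median log2 fold -0.65, -0.01 over all genes), among them Ppp1r17 (-0.51), with sums of 138619 to 249506 in floxed and 105524 to 163230 in cKO libraries. Of 7 Bergmann glia markers 6 fell (median -1.32), and of 14 astrocyte markers 8 fell and Gfap rose. All 8 microglia markers rose (median 1.61). Of 7 inhibitory neuron markers tested 5 fell (median -0.82), with sums of 37876 to 63673 in floxed and 26178 to 51758 in cKO libraries. Of 12 general neuron markers 6 fell and 1 rose (median -0.22), with sums of 164471 to 183866 and 112487 to 174092. Of 7 genes tested from the cortical excitatory list 4 fell (median -0.59), and in cerebellum this list was not read as a cell type. Of 5 thalamic, dopamine and serotonin markers tested 1 rose and 1 fell (median 0.10). The 8 listed markers of this kind summed to 797 to 5608 in floxed and 1909 to 7651 in cKO libraries. Without floxed library 6 the floxed sums ended at 1868, below every cKO library. Of all these markers Fezf2 and Vip alone had a median of 0 in cKO cerebellum, and the part of any cell type in the fall of the 5 members was not tested.

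**Figure D4:**
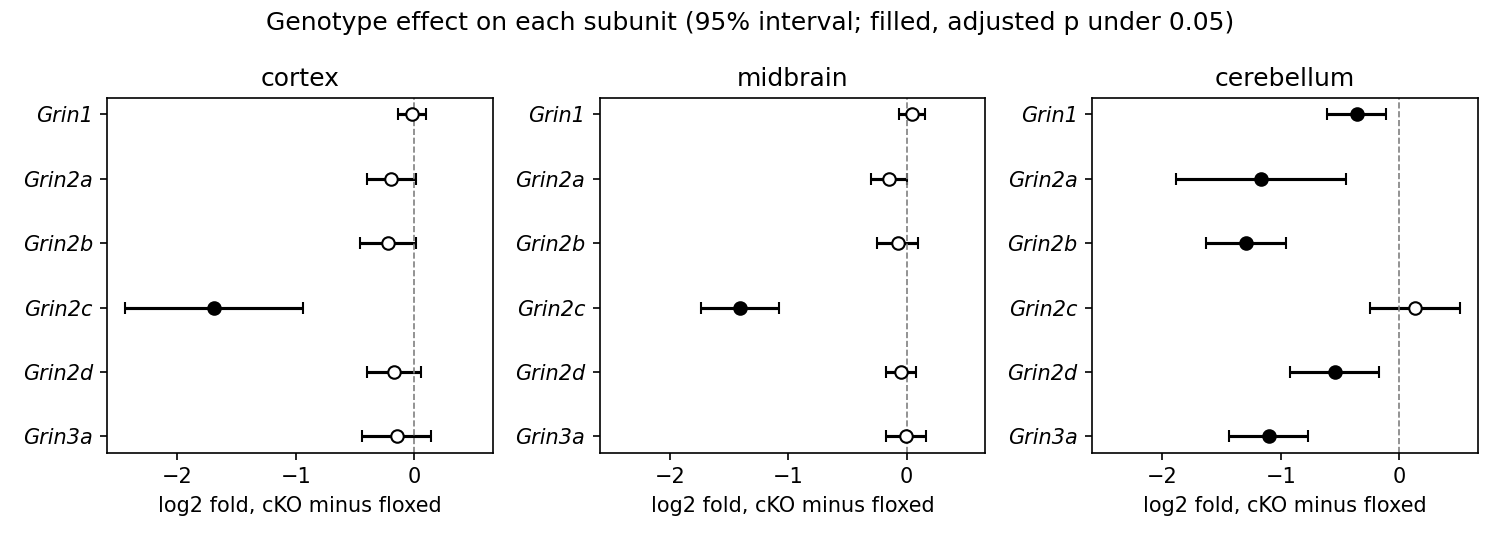
Log2 fold of cKO minus floxed with its 95% interval for each subunit in cortex (n = 6 and 5), midbrain (n = 7 and 7) and cerebellum (n = 7 and 7), filled where the limma adjusted p is under 0.05. Grin2c is the filled point in cortex (-1.69) and midbrain (-1.41), and in cerebellum the other 5 members are filled.

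The difference of the genotype effect between regions was tested in a fit of all 6 groups. Between cerebellum and midbrain it was called for all 6 members, lower for 5 (12% of all genes called lower) and higher for Grin2c (10.4% called higher). It was -1.22 for Grin2b (limma adjusted p = 1.6e-05), -1.09 for Grin3a (8.72e-05), -1.02 for Grin2a (0.0180), -0.50 for Grin2d (0.0414), -0.40 for Grin1 (0.0102) and 1.54 for Grin2c (0.000737). Between cerebellum and cortex, which shares the cerebellar libraries, it was -1.06 for Grin2b (0.00034), -0.94 for Grin3a (0.0015) and 1.85 for Grin2c (0.00036), where 8.09% of all genes were called lower and 6.4% higher. Grin1 (-0.35, adjusted p = 0.0484) and Grin2a (-0.97, 0.0464) passed narrowly. Without cKO cerebellum libraries 4 and 7 neither passed (-0.23, adjusted p = 0.0803, and -0.46, 0.0892), and against midbrain Grin2a was -0.51 (0.0396). Grin2d did not pass between cerebellum and cortex (-0.38, adjusted p = 0.185). It passed without the floxed cerebellum library numbered 6 (-0.50, 0.0242), without all libraries of that animal (-0.52, 0.0284) and with library weights (-0.53, 0.0145). Leaving out 1 library at a time ended the call of Grin1 in 31 and of Grin2a in 29 of 39 fits, and that of Grin2d between cerebellum and midbrain in 17 of 39. Between midbrain and cortex limma called no member, and 0.006% of all genes (1 of 16659). No member had an unadjusted p under 0.05 there, the lowest being that of Grin2c (0.369).

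The makeup of the GluN2 transcripts was compared next. Of the summed Grin2a to Grin2d level per kb of exon, Grin2c held 33.0% ± 9.43 in floxed and 14.8% ± 4.49 in cKO cortex (SD, n = 6 and 5), a difference of -18.2 percentage points (two-sided exact permutation p = 0.00866). In midbrain it held 34.5% ± 3.56 and 17.8% ± 4.80 (SD, n = 7 and 7), a difference of -16.7 (exact permutation p = 0.000583, the smallest this design allows). In cerebellum it held 94.5% ± 1.58 and 96.9% ± 1.15 (SD, n = 7 and 7), a difference of 2.45 (exact permutation p = 0.00699). Adjusted over the 6 makeup comparisons with the Benjamini-Hochberg method the p-values of the cortex, midbrain and cerebellum were 0.0173, 0.0035 and 0.0173. With coding length in place of exon length the differences were -8.00, -7.90 and 5.67 percentage points. The share of Grin2b was 38.6% in floxed and 48.3% in cKO cortex, and 31.2% and 39.6% in midbrain. The Grin2b shares were not tested, since shares of 1 sum cannot move independently. The Grin2c shares rest on the same values as the tests of single members, so their p-values are not a separate result. In cerebellum Grin2c itself did not pass the test.

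**Figure D5:**
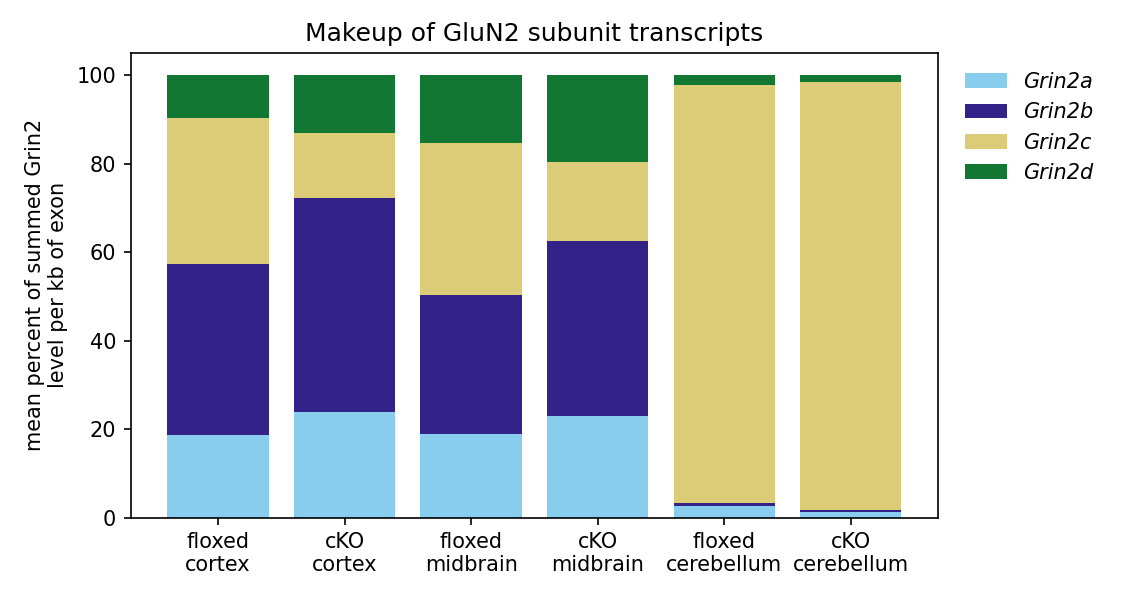
Mean percent of the summed level per kb of exon held by each GluN2 transcript in the 6 groups (n = 6, 5, 7, 7, 7 and 7), stacked to 100. Grin2c takes a smaller share in cKO than in floxed cortex and midbrain and nearly the whole of the sum in cerebellum of either genotype.

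The log2 ratio of Grin2b to Grin2a, the pair that exchanges during postnatal development, was 1.52 ± 0.11 in floxed and 1.48 ± 0.17 in cKO cortex (SD, n = 6 and 5, exact permutation p = 0.649) and 1.19 ± 0.15 and 1.26 ± 0.10 in midbrain (SD, n = 7 and 7, exact permutation p = 0.299). In cerebellum it was -1.51 ± 0.11 in floxed and -1.63 ± 0.76 in cKO libraries (SD, n = 7 and 7, exact permutation p = 0.677). The cKO libraries 4 and 7 were at -0.64 and -0.58 and the other 5 between -2.51 and -1.50, and without those 2 the difference was -0.53 (exact permutation p = 0.00631), an alternative chosen after seeing the data. These ratios are of normalised reads and not per kb.

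Genes that work with the receptor were described from lists. Of 12 other ionotropic glutamate receptor genes, 5 fell and 0 rose in cKO cortex (median log2 fold -0.24), with the kainate receptor gene Grik2 at -0.44 and the AMPA receptor gene Gria4 at -0.27. None was called in midbrain, by limma, where the lowest p belonged to Grin3b (-0.39, adjusted p = 0.0544), the remaining NMDA receptor subunit gene, at 45.0 to 105.7 normalised reads. In cerebellum 10 of the 12 fell (median -0.91), among them Gria1 (-1.32), Grid1 (-1.43) and Gria2 (-0.83). The medians over all genes were -0.01 in each region. The shares of all genes called lower were 12.9% in cortex, 7.61% in midbrain and 19.6% in cerebellum. Those called higher were 10.5%, 8.48% and 19.4%. These shares are the background for the counts of the other lists as well. Without cKO libraries 4 and 7, 11 of the 12 were called lower in cerebellum.

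Of 24 scaffold and trafficking genes, 7 fell and 1 rose in cortex, 3 rose and 0 fell in midbrain, and 12 fell and 1 rose in cerebellum. The postsynaptic scaffold genes Dlg1 (-0.30) and Shank3 (-0.38) and the adaptor gene Lin7c (-0.24) fell in cortex, and Dlg4 (-0.59), which encodes PSD-95, Dlg1 (-0.44) and Dlgap1 (-0.46) fell in cerebellum. In midbrain the 3 that rose were Gipc1 (0.21), Actn2 (0.34) and the kinesin gene Kif17 (0.25). Without floxed cortex library 6 the cortical counts were 4 lower and 0 higher. Of 18 kinase, phosphatase and signalling genes, 3 fell in cortex, 2 rose in midbrain and 11 fell and 1 rose in cerebellum. The kinase genes Camk2a and Src fell in cortex (-0.38 and -0.20) and in cerebellum (-0.87 and -0.61), Rasgrf1 fell in cortex (-0.26) and the nitric oxide synthase gene Nos1 fell in cerebellum (-1.57). In midbrain the phosphatase genes Ptpn5 (0.22) and Ppp1ca (0.18) rose.

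The genes of co-agonist supply, which make, move or break down glycine and D-serine, moved in both directions. In cortex 5 of 12 tested rose and 2 fell (median log2 fold 0.22), with the glycine-forming enzyme gene Shmt2 at 0.40, the glycine cleavage gene Amt at 0.57 and the D-serine transporter gene Slc7a10 at -1.03. In midbrain 4 of 14 rose and 3 fell, and in cerebellum 1 rose and 5 fell, which became 3 and 5 without cKO libraries 4 and 7. The D-amino acid oxidase gene Dao, whose product degrades D-serine, fell by 3.71 in cerebellum and by 1.84 in midbrain. Phgdh, of serine synthesis, fell by 0.68 and 0.43, and Amt rose by 0.55 and 0.63. Dao had 178 to 2880 normalised reads in floxed and 45.3 to 230.0 in cKO cerebellum, so its ranges overlapped.

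Of the kynurenine pathway, which yields quinolinate, an NMDA receptor agonist, and kynurenate, an antagonist, 7 of 12 genes were tested in cortex and in midbrain and 5 in cerebellum. Afmid rose in cortex (log2 fold 0.49) and cerebellum (1.18), Ido1 rose in midbrain (0.97), and Tdo2 fell in midbrain (-1.04) and cerebellum (-2.56). Of the activity-regulated genes none of 11 was called in cortex or midbrain by limma, where Nptx2 (0.70 and 0.59) and Npas4 (-0.70 and -0.77) lay furthest from 0 among those named. In cerebellum 3 of 10 fell, Egr4 (-1.54), Fos (-1.96) and Egr1 (-0.90). The count is sensitive to libraries that stand apart: without floxed library 6 it was 2 lower in cortex and 3 lower in midbrain, and without cKO libraries 4 and 7 it was 5 lower in cerebellum.

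Across the 39 libraries with region means subtracted, which share tissue, depth and genotype, members differed in how they varied together. Pearson's r was 0.89 between Grin2b and Grin3a, 0.81 between Grin2a and Grin2b and 0.79 between Grin2a and Grin3a, while Grin2c had r between -0.12 and 0.13 with every other member. Among 14846 genes, those most like Grin2c were Col11a2 (0.92), Appl2 (0.91) and Lmcd1 (0.91), and those most like Grin1 were Eif4h (0.91), Ankrd34a (0.91) and Camk2b (0.90). The nearest to Grin2a were Grm7, Armcx3 and Aak1 (0.95 each), to Grin2b Ptpre (0.93), Runx1t1 (0.92) and Fam234b (0.92), to Grin2d Adamts15 (0.84), Sema4g (0.82) and Proca1 (0.82), and to Grin3a Kcnd3 (0.94), Frmpd4 (0.94) and Slc22a23 (0.93). With no subtraction, so that region differences count, the nearest were Appl2 (0.98), Chd7 and Tnrc6a (0.95 each) for Grin2c, and Slc1a1, Fam189a1 and Lrrc7 (0.99 each) for Grin2b. They were Tmem198 (0.98), Ppme1 and Vamp2 (0.97 each) for Grin1, Grm7, Sgtb and Adcy9 (0.98 each) for Grin2a, Osbpl5, Lurap1l and Tmppe (0.95 each) for Grin2d, and Rab3c, Brinp3 and Ccdc85a (0.98 each) for Grin3a.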

How the data were processed

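RNA from 41 libraries was sequenced with a kit that does not mark strand, and 39 libraries have a group. The values, deposited as raw counts by the authors, are not whole numbers: they are a signal in which 86.8% of 75740 low values lay within 0.1 of a whole multiple of a step that differed up to 10.8-fold between libraries. They were therefore treated as normalised reads, and limma was used where a count test had been planned. STAR, Salmon, DESeq2 and mm10 are named in the submitters' processing notes, with no version or order.

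The deposited signal was transformed as log2(value + 1). A gene entered a test where at least 10 was reached in a number of libraries no smaller than the smaller group. Tests used limma 3.58.1 (R 4.3.3, trend and robust) with labelled sex as a covariate, and p-values were adjusted over all genes with the Benjamini-Hochberg method at a threshold of 0.05. Intervals are 95%. Genotype was tested within each region and regions among floxed libraries, and the difference of genotype effects in a fit of all 6 groups, with the libraries of an animal taken as independent. Single values were compared with two-sided exact permutation tests over libraries. Fits were tested on simulated data. Python 3.11.15 with scipy 1.17.1 was used otherwise.

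The 26 entries with a date for a name were left out of 24972. The members and gene lists were chosen with earlier results of these data known. Named genes were all members, Yy1, the 3 genes of each pathway list with the lowest p per region, up to 2 of each marker list, and the 3 nearest genes of each member, with Gfap and a few overlapping genes added after their values were seen. The p-values of the genotype tests within a region measure the spread between animals. Those of the region comparisons and of the fit of all 6 groups take libraries of 1 animal as independent, so they do not measure that spread alone. Same-numbered floxed and cKO libraries correlated above 0.1 in 2 of 5 pairs in cortex, 0 of 7 in midbrain and 2 of 7 in cerebellum. Correlations of so few pairs cannot show whether the numbers pair floxed with cKO animals. Same-numbered libraries of different regions come from 1 animal, per the labels' protocols. Such floxed libraries correlated above 0.1 in 6 of 6 pairs of cortex with midbrain. The counts were 5 of 6 for cortex with cerebellum and 7 of 7 for midbrain with cerebellum. A gene that the rule for named genes picked is not reported here. The 2 libraries whose title and tissue label disagree have no group. Alternatives covered the pseudocount, filter, scaling, sex, depth, block, weights and left-out libraries.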

Additional observations from a re-analysis of the deposited data

Results flagged for a closer look

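A library lay far from the rest of its group in 4 of 48 sets of values, where chance flags about 1 in 20 groups. Grin2c in the floxed cortex library numbered 6 had 845 normalised reads (others 2648 to 3237), and its share of the GluN2 level was 15.1% (others 32.2% to 41.1%). Grin2d in the floxed cerebellum library numbered 6 had 323 normalised reads (others 539 to 615). Grin2a in the cKO midbrain library numbered 1 had 2922 (others 3645 to 4192).

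The cKO minus floxed difference on the log2 scale differed between regions in 11 tests (limma, adjusted p under the threshold). Between cerebellum and cortex the difference was -0.35 for Grin1, -0.97 for Grin2a, -1.06 for Grin2b, 1.85 for Grin2c and -0.94 for Grin3a. Between cerebellum and midbrain it was -0.40 for Grin1, -1.02 for Grin2a, -1.22 for Grin2b, 1.54 for Grin2c, -0.50 for Grin2d and -1.09 for Grin3a. Both sets share the cerebellar libraries.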

How the results depend on the processing

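Grin2c kept its fall in cortex (log2 fold -2.05 to -1.52) and midbrain (-1.49 to -1.32) when any 1 library was left out, and Grin2b and Grin3a kept theirs in cerebellum. A replicate block gave Grin2c in cortex -1.62 (limma adjusted p = 0.0703), so that 0 members were called there, and Grin1 in cerebellum an adjusted p of 0.0535. For the Grin2c share in cortex, signs were flipped over the 5 same-numbered pairs. The difference was -17.2 percentage points (exact permutation p = 0.125 by sign flips), and so few pairs cannot reach 0.05. The replicate block changed no other member's call, and whether the numbers pair floxed with cKO samples is not known. With depth added, 3 members were called in cerebellum. Between cerebellum and cortex, 3 were called with no filter, equal library totals, no sex covariate, Xist in place of labelled sex, without the animals numbered 5 to 7, or without cKO cerebellum libraries 4 and 7. Leaving out 1 library gave 1 to 2 members in cortex, 3 to 5 in cerebellum and 3 to 6 for cerebellum against cortex.

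Some log2 differences changed sign. Grin1 in cortex was 0.011 with equal totals, 0.010 by quantile and 0.0034 with depth, and in midbrain -0.0158 with depth. Grin3a in cortex was 0.0401 with Xist and 0.0315 with weights. Grin3a in midbrain was 0.0047 with equal totals, 0.0070 by quantile, 0.0099 with Xist, 0.10 with depth and 0.0583 with weights, and -0.0483 to 0.0516 with 1 library left out. Grin2c in cerebellum was -0.0844 with depth, -0.0717 with weights, -0.11 without cKO libraries 4 and 7 and -0.14 also without floxed library 6. The genotype effect of midbrain minus cortex was -0.0125 for Grin3a without animals 5 to 7, and -0.0541 to 0.11 for Grin2a with 1 library left out. Grin2c of floxed midbrain minus cortex ranged from -0.40 to 0.0641. The log2 ratio of Grin2b to Grin2a differed by 0.0383 in cortex without animals 5 to 7, by -0.0888 to 0.0217 with 1 library left out, and in cerebellum by -0.30 to 0.0224, or by -0.53 without cKO libraries 4 and 7. The cause was not tested. Settings that leave out animal 6 or cKO libraries 4 and 7 were chosen after seeing the data.

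Over all genes, the number called ranged across settings from 1164 to 4862 in cortex (3693 as reported), 721 to 3106 in midbrain (2524), 4333 to 8832 in cerebellum (5980), and for the genotype effect from 1 to 63 between midbrain and cortex (1), 2038 to 3745 between cerebellum and cortex (2414) and 3197 to 5547 between cerebellum and midbrain (3732). The cortical shares of 12.9% called lower and 10.5% higher depend on the sex covariate. With labelled sex 2037 genes were called lower in cortex and 1656 higher. The counts were 588 and 1035 with Xist in its place, and 995 and 1045 with no sex covariate. Depth, at 6.81 to 69.5 M reads, limits genes at low values such as Grin3b.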

Other observations

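The 2 libraries with no group carry cortex in the title and midbrain as the tissue label. The library labelled floxed had 24655 normalised reads of Grin1, 5410 of Grin2a, 14240 of Grin2b, 2953 of Grin2c, 795 of Grin2d and 917 of Grin3a. The library labelled cKO had 21605 of Grin1, 4329 of Grin2a, 12912 of Grin2b, 1173 of Grin2c, 980 of Grin2d and 1132 of Grin3a.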
